A study of Mus musculus with 17 samples.

Results

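Among 7827 Visium spots on 3 brain sections of wild-type mice, 121 spots held C1ql2 together with Tcf7l2 and Slc17a6. Visium spots are small barcoded patches of tissue that each collect the RNA of several cells or parts of cells. The 121 spots, called C1ql2 spots here, had a total of at least 1000 counts, at least 1 count of Tcf7l2, at least 1 count of Slc17a6 and at least 1 count of C1ql2. Within each section they were set against the spots that met the same rule but had no C1ql2 count, of which there were 767. The label under which they were chosen is the anterodorsal nucleus, and the rule used C1ql2, Tcf7l2 and Slc17a6 themselves, so the levels of these 3 genes are described here and not tested.

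The study profiled mouse anterior thalamus, all of it from wild-type animals, by spatial transcriptomics and by sequencing of single cells. Flash-frozen brain was cut at 10 µm, stained for NeuN and DAPI, and permeabilized for 24 min on the slides, 1 section from an anterior level and 2 from a posterior level of these nuclei (labelled 5, and 2 and 6). The single cells were taken by hand from microdissected acute slices of B6 mice, and they serve here as a second assay that the rule for spots did not use. The labels give neither the age nor the sex of the animals, nor which sections came from one brain. The p-values for spots therefore measure how the difference between groups within a section varied over 3 sections, which may share an animal.

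The anterodorsal nucleus is the dorsal member of the anterior thalamic nuclei, a group of limbic relay nuclei that connect the mammillary bodies with retrosplenial and parahippocampal cortex, and it is known for neurons that fire by the direction of the head. C1ql2 encodes a secreted protein of the C1q family that acts at glutamatergic synapses, and it is also known from dentate granule cells of the hippocampus, which lies above the dorsal thalamus. Tcf7l2 encodes a transcription factor of the Wnt pathway that marks thalamic neurons, and Slc17a6 encodes VGLUT2, the vesicular glutamate transporter of thalamic relay neurons.

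Total counts over all spots were 26032042 in posterior section 2, 13788407 in anterior section 5 and 18582120 in posterior section 6. The 3 sections used 4182 distinct barcodes for 7827 spots, since slides reuse barcodes, while the 121 C1ql2 spots had 121 distinct barcodes. C1ql2 spots were deeper than the spots with no C1ql2 count in every section, with a median total of 11235 against 9364 counts in section 2, 6847 against 4942 in section 5 and 9096 against 6671 in section 6. With every spot thinned to 1000 counts, 1 gene was higher and 0 were lower in the main comparison by the same edgeR test described beside it, and with spots of at least 5000 counts alone 30 were higher and 12 were lower, so the part of the depth gap in its calls cannot be told apart from the loss of counts.

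Spots with C1ql2 made up 16.8% of the 328 spots that met the rest of the rule in posterior section 2 (exact 95% binomial interval 12.9% to 21.3%). The share was 11.2% of 224 spots in anterior section 5 (7.35% to 16.0%) and 12.2% of 336 spots in posterior section 6 (8.90% to 16.2%). The 3 intervals overlapped. Outside the rule, 3.15% of 6919 spots with enough counts held C1ql2 (218 spots, 2.75% to 3.59%), of which 45 lacked only Tcf7l2, 47 lacked only Slc17a6 and 126 lacked both. With each spot thinned to 1000 counts the expected shares were 2.84% inside the rule and 0.556% outside it. By section, the thinned share inside the rule was 2.59% in posterior section 2, 3.56% in anterior section 5 and 2.60% in posterior section 6. The order of the sections thus changed with depth, and section 5, lowest before thinning, was highest after it. The binomial intervals cover counting error only.

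**Figure D1:**
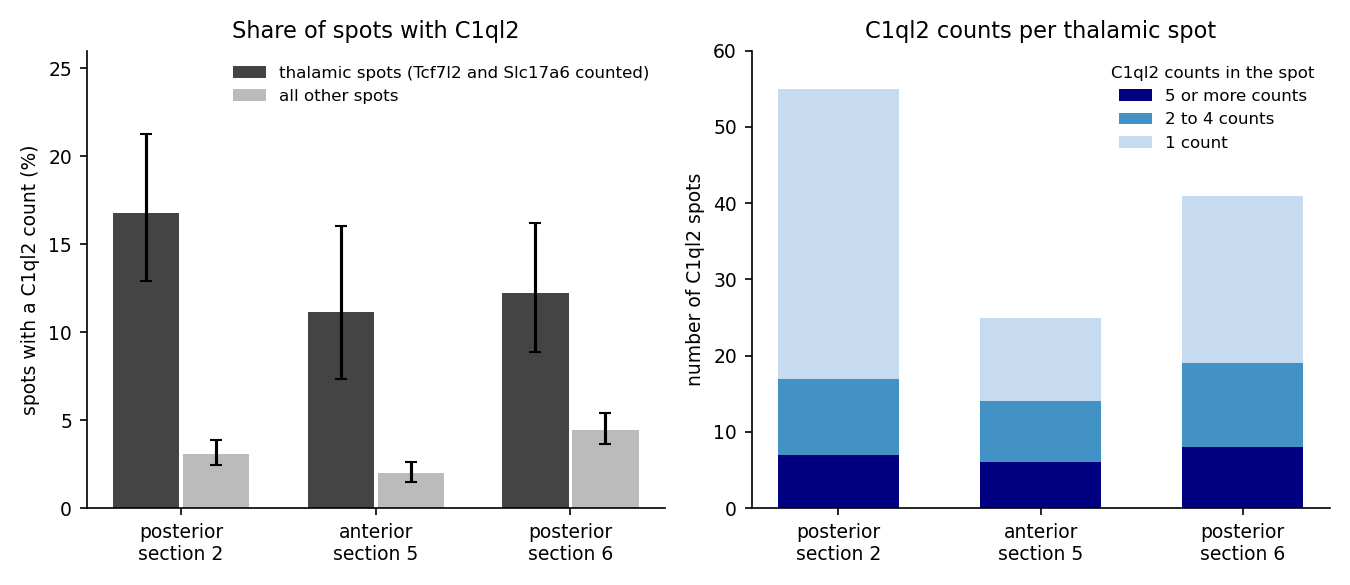
Left, share of spots with a C1ql2 count (%) among thalamic spots, which held Tcf7l2 and Slc17a6, and among all other spots with at least 1000 counts, by section, with exact 95% binomial intervals. Right, number of C1ql2 spots by the number of C1ql2 counts in the spot. The share lay between 11.2% and 16.8% inside the rule, and 71 of the 121 spots held a single C1ql2 count.

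Most C1ql2 spots sat just inside the threshold. A single C1ql2 count was found in 71 of the 121 spots (38 in section 2, 11 in section 5 and 22 in section 6), 2 to 4 counts in 29 and 5 or more in 21, up to 13 counts. The spots just outside the threshold had 0 by definition. Summed over the spots of a section, C1ql2 reached 181, 392 and 251 CPM (its counts scaled to a total of 1000000 over the summed spots) in posterior section 2, anterior section 5 and posterior section 6, the order kept for sets of 3 section values in what follows. The other genes of the rule also sat at their minimum in some spots, as 24 of the 121 had 1 count of Tcf7l2 and 26 had 1 count of Slc17a6. Values for spots with 1 count and for the 50 spots with 2 or more (17, 14 and 19 per section) are therefore given apart as well. Spots with 2 or more counts were deeper than those with 1 in every section. Median totals were 10220, 6416 and 8013.5 counts with 1 C1ql2 count, 13314, 7286 and 9096 with 2 to 4, and 12273, 7965 and 11901.5 with 5 or more.

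Relative to the spots with no C1ql2 count, C1ql2 spots were higher in Rspo3, Slc17a7, Gng13 and Eps8l2 and in the transmitter release genes Cplx1, Vamp1 and Snap25, and lower in Foxp1, Mef2c and the inhibitory neuron genes Sst and Gad1. Of 9393 genes tested on the summed counts of each section, 57 were higher (0.607%) and 27 were lower (0.287%), 84 in all (0.894%), at an adjusted p under 0.05 by edgeR's quasi-likelihood test with the section as a block, and 913 had an unadjusted p under 0.05. These calls leaned on the anterior section. Without anterior section 5, 3 of the 84 genes still passed (Eps8l2 and Gng13 higher, Mef2c lower), whereas 64 passed without posterior section 2 and 56 without posterior section 6, and every one of the 84 kept its direction in each of these fits. The counts themselves were 2 higher and 1 lower without section 5, and 119 higher and 86 lower without section 2, and without section 6 the lower genes numbered 60. With C1ql2 at 2 or more counts, 312 of 8533 genes were higher (3.66%) and 219 were lower (2.57%), 531 in all (6.22%), of which 323, 227 and 232 still passed without sections 5, 2 and 6. Left-out sections gave 151 to 224 higher and 90 to 140 lower genes there. Spots with exactly 1 C1ql2 count gave 0 genes of 9130 against the spots with none, by the same edgeR test, with 259 at an unadjusted p under 0.05. Each spot mixes cells, so fewer cells of a type and less RNA per cell cannot be told apart in any of these values.

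Of the 7 genes listed as markers of the anterodorsal nucleus, C1ql2 chose the spots and 4 of the other 6 had enough counts to be tested. Rspo3 (chromosome 10, 29453106 to 29535867 on GRCm38.p6), a secreted amplifier of Wnt signalling, stood at 22.1, 89.5 and 36.2 CPM in C1ql2 spots, against 5.16, 11.6 and 6.65 CPM in spots with none. Each C1ql2 value lay above all 3 of the others (log2 fold change 2.50 ± 0.37, adjusted p = 0.000505), where the groups did not overlap for 15.3% of the genes tested. With 2 or more C1ql2 counts Rspo3 reached 52.8, 129.7 and 60.5 CPM (log2 fold change 3.35 ± 0.39, adjusted p = 8.79e-09), and it passed there with any 1 section left out.

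Slc17a7 (chromosome 7, 45163921 to 45176139), which encodes VGLUT1, the vesicular glutamate transporter of cortical and hippocampal neurons, had 199, 380.5 and 449.5 CPM in C1ql2 spots, against 183, 114 and 194 CPM in spots with none. It was higher in each section, but the value of section 2 was close to those of the spots with none (log2 fold change 0.95 ± 0.18, adjusted p = 0.00697, and 0.296 without section 5). It stood at 383, 547 and 559.7 CPM in spots with 2 or more counts, above every value of the other group (log2 fold change 1.56 ± 0.15, adjusted p = 1.92e-11), as was so in one direction or the other for 23.4% of the genes tested there, and passed with any 1 section left out. The muscarinic receptor gene Chrm1 was higher in spots with 2 or more counts, at 30.8, 55.6 and 70.6 against 21.4, 13.6 and 22.3 CPM (adjusted p = 0.0192), a call lost without section 5 or 6. Syt17, a synaptotagmin gene, had 67.8, 72.7 and 20.7 CPM in C1ql2 spots and 62.3, 41.7 and 53.2 CPM in spots with none (adjusted p = 0.977). Serpinb7 was near 0, with 2, 0 and 1 counts in C1ql2 spots against 1, 1 and 0 counts, and Kcnk9 had no count in either group. Of the markers named for the anterodorsal nucleus beside C1ql2, Rspo3 and Slc17a7 were higher, while Syt17 did not pass and Serpinb7 and Kcnk9 could not be tested.

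Slc17a7 and Rspo3 were higher where C1ql2 had 2 or more counts than where it had 1, in every section. Slc17a7 stood at 553, 710.0 and 615 CPM in spots with 5 or more C1ql2 counts, 259, 409 and 508 CPM with 2 to 4 and 95.7, 127 and 334 CPM with 1. With 1 count, section 2 was below its spots with none and section 6 above them. Rspo3 stood at 62.6, 101 and 62.5 CPM with 5 or more counts, 45.7, 153 and 58.6 CPM with 2 to 4 and 4.91, 28.3 and 10.6 CPM with 1, so that its step fell between 1 count and 2 to 4. Tcf7l2, which helped choose all of these spots, had 613, 459 and 357 CPM in C1ql2 spots and 438, 647 and 549 CPM in spots with none, and Slc17a6 had 493, 459 and 354 against 359, 467 and 421 CPM. Both overlapped between the groups.

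**Figure D2:**
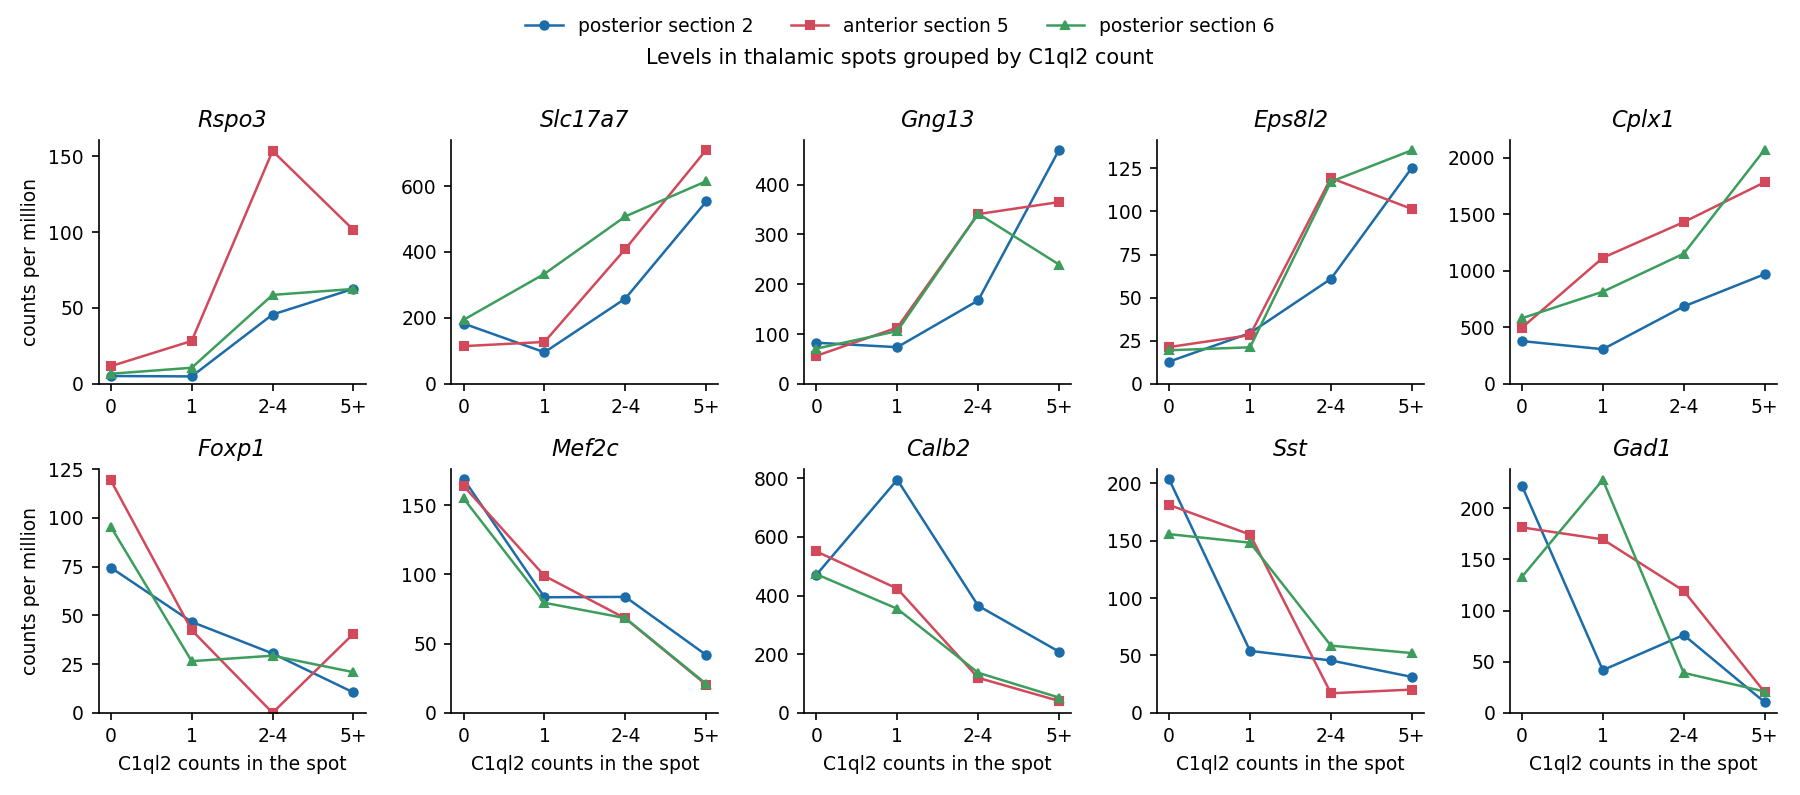
CPM of 10 genes in thalamic spots grouped by their C1ql2 count (0, 1, 2 to 4, 5 or more), summed per section. Each line is 1 section and the y axes start at 0. Rspo3, Gng13 and Eps8l2 step up between 1 count and 2 to 4 counts in every section, Foxp1 and Mef2c are already lower at 1 count, and Calb2 in section 2 is highest at 1 count, at 795 CPM.

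Gng13 (chromosome 17, 25717172 to 25719102), a G protein gamma subunit, had 153, 257 and 202 CPM in C1ql2 spots, against 82.6, 56.2 and 70.8 CPM in spots with none (log2 fold change 1.43 ± 0.18, adjusted p = 0.000337). Eps8l2 (chromosome 7, 141338911 to 141363020), an actin-binding adaptor of the EPS8 family, had 50.4, 78.3 and 74.9 CPM against 12.9, 21.3 and 19.5 CPM (log2 fold change 1.95 ± 0.26, adjusted p = 0.000337). Neither gene overlapped between the groups, as was so for 15.3% of the genes tested, and these were the 2 higher genes that passed without section 5.

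Stk32b, a serine/threonine kinase gene, had the largest fold change, with 12.6, 44.8 and 31.0 CPM in C1ql2 spots against 4.79, 0.969 and 2.37 CPM (log2 fold change 2.90 ± 0.58, adjusted p = 0.0101). Bcl2l11, which encodes the BH3-only protein BIM, had 18.9, 56.0 and 31.0 CPM against 4.42, 3.88 and 8.55 CPM (log2 fold change 2.37 ± 0.44, adjusted p = 0.00517). Abhd12b, of the alpha/beta hydrolase family, had 26.8, 33.6 and 33.6 CPM against 4.06, 4.85 and 12.8 CPM (log2 fold change 2.12 ± 0.41, adjusted p = 0.00797). All 3 genes passed in spots with 2 or more counts with any 1 section left out, at log2 fold changes of 3.69, 3.18 and 2.96.

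Serpinf1, which encodes the secreted pigment epithelium-derived factor, had 20.5, 50.4 and 62.0 CPM in C1ql2 spots and 11.4, 17.4 and 7.60 CPM in spots with none (log2 fold change 1.84 ± 0.38, adjusted p = 0.0113). Fstl1, which encodes a secreted follistatin-like protein, had 64.6, 106 and 93.0 CPM against 31.3, 46.5 and 32.3 CPM (log2 fold change 1.27 ± 0.21, adjusted p = 0.00186). Both separated the groups in all sections, as did 15.3% of the genes tested in one direction or the other. Fstl1 had a log2 fold change of -0.23 in spots with 1 count, against 2.08 ± 0.24 with 2 or more (adjusted p = 5.06e-09). Nptx2, a secreted pentraxin that gathers glutamate receptors, was also higher (log2 fold change 1.15 ± 0.21, adjusted p = 0.00516), as was Dkk3 of the Dickkopf family (log2 fold change 1.17 ± 0.26, adjusted p = 0.025). The adhesion gene Sdk2 had 28.4, 50.4 and 36.2 CPM against 9.59, 8.72 and 20.4 CPM (log2 fold change 1.45 ± 0.35, adjusted p = 0.043), a call lost without section 2 or 5. Further named genes among the largest rises were Hhatl, Hspb8, a small heat shock protein, Megf11, an EGF-domain membrane protein, Sncg, which encodes gamma-synuclein, and Syndig1l, with log2 fold changes of 1.57, 1.49, 1.43, 1.29 and 1.27. Hhatl passed in no fit with a section left out, while with 2 or more C1ql2 counts it passed in each of them.

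**Figure D3:**
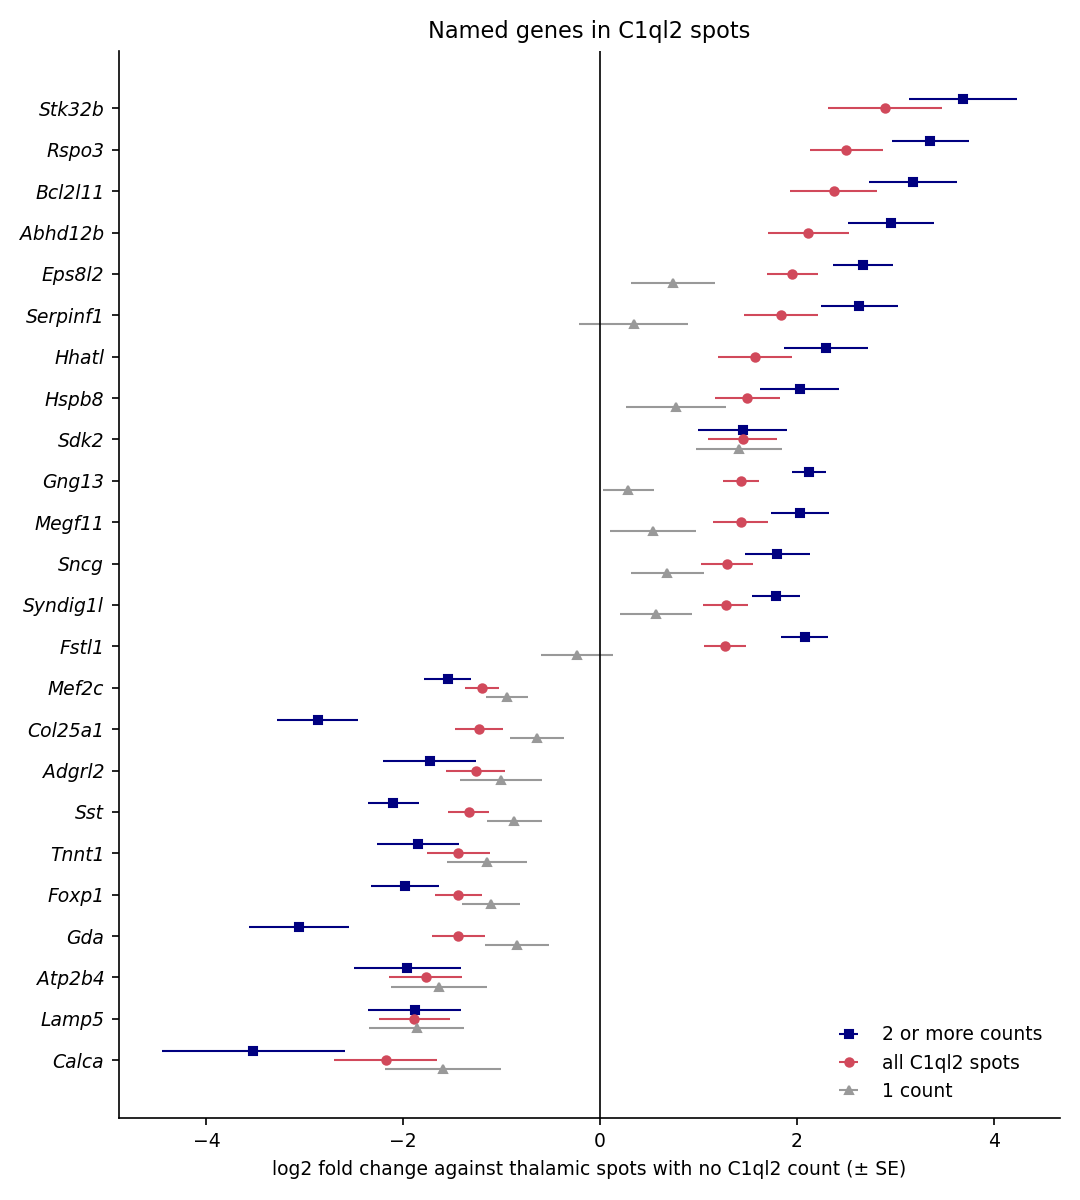
Log2 fold change (± SE) of named genes with the largest rises and of the 10 with the largest falls, in spots with 2 or more C1ql2 counts, in all C1ql2 spots and in spots with 1 count, each against thalamic spots with no C1ql2 count. Missing triangles mark genes with too few counts to be tested. Fstl1 is at -0.23 in spots with 1 count and at 2.08 with 2 or more.

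The Wnt pathway list, in which R-spondins amplify Wnt signals and Dickkopf and naked-cuticle proteins dampen them, had 28 measured genes, of which 12 were tested in C1ql2 spots. Rspo3 and Dkk3 were higher and none was lower, with a median log2 fold change of 0.20 against 0.00 over all genes tested. In spots with 2 or more counts, Rspo3, Dkk3, Nkd1 and Ctnnb1, which encodes beta-catenin, were higher among 11 tested. The share higher over all genes tested was 0.607% in C1ql2 spots and 3.66% in spots with 2 or more counts. Nkd1 had 52.8, 83.4 and 70.6 CPM there against 24.7, 24.2 and 31.3 CPM (adjusted p = 0.00632) and passed in no fit with a section left out. Ctnnb1 had 638, 472 and 595 against 445, 444 and 461 CPM and kept its call only without section 5.

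Of 13 neurofilament and fast-firing genes, 4 were higher in C1ql2 spots (Cplx1, Vamp1, Nefh and Sncg) and Pvalb was lower, with a median log2 fold change of 0.49 against 0.00 over all genes. Of 33 tested genes of synaptic vesicles and release, 3 were higher (Snap25, Cplx1 and Vamp1), none was lower and 17 had positive fold changes, and their median of 0.0037 was close to that of all genes. Where C1ql2 had 2 or more counts 9 of the 13 were higher, adding Nefm, Nefl, Ina, Syt2 and Thy1, and Pvalb and Spp1 were lower, with a median of 0.75 against -0.01 over all genes. Over all genes tested, 0.607% were higher in C1ql2 spots and 3.66% in spots with 2 or more counts. Cplx1, a complexin that clamps and primes synaptic vesicles, had 485, 1404 and 1217 CPM in C1ql2 spots and 379, 497 and 581 CPM in spots with none (log2 fold change 0.99 ± 0.14, adjusted p = 0.000447). Section 2 was the low one in both groups, so the ranges overlapped although each section rose.

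Vamp1, a vesicle SNARE of fast synapses, had 191, 364 and 388 CPM in C1ql2 spots against 137, 129 and 154 CPM (log2 fold change 1.08 ± 0.16, adjusted p = 0.000464), and Snap25, its partner on the plasma membrane, had 2638, 3816 and 3694 CPM against 2055, 2086 and 2294 CPM (log2 fold change 0.66 ± 0.09, adjusted p = 0.000447). Both separated the groups, as did 15.3% of the genes tested in one direction or the other. With 2 or more counts, 9 of 32 tested genes of vesicle release were higher, among them Cplx1, Vamp1, Snap25, Syt1, Syt2, Bsn and Sv2b, and 5 were lower (Rims3, Syt5, Syt4, Stx1a and Syt13), with a median of 0.16 against -0.01 over all genes. The shares over all genes tested there were 3.66% higher and 2.57% lower. The neurofilament gene Nefh had 233, 398 and 413 CPM in spots with 2 or more counts against 111, 173 and 154 CPM, and Nefm had 387, 491 and 620.2 CPM against 219, 267 and 245 CPM (log2 fold changes 1.28 ± 0.14 and 1.07 ± 0.13, adjusted p = 4.08e-09 and 2.18e-08). Both passed with any 1 section left out.

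Among sodium and HCN channel genes, Scn4b, Scn2b, Hcn2 and Scn1a were higher in spots with 2 or more counts, while Scn2a1 and Scn3b were lower, at log2 fold changes of -0.80 ± 0.19 and -1.08 ± 0.29. Scn4b, which encodes an auxiliary channel subunit, had 48.4, 64.8 and 121 CPM there, against 38.7, 21.3 and 29.9 CPM in spots with none (log2 fold change 1.34 ± 0.32, adjusted p = 0.00384). Its call was lost without section 6, that of Scn2b without section 5 or 6, and that of Hcn2 without section 2 or 6.

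Of 29 voltage-gated potassium channel genes tested, Kcnab2, a cytoplasmic beta subunit, was the 1 that passed in C1ql2 spots, with 145, 397 and 369 CPM against 103, 185 and 167 CPM (log2 fold change 0.94 ± 0.14, adjusted p = 0.000571). The value of section 2 lay within the range of the spots with none. Among all genes tested in C1ql2 spots, 0.894% passed in either direction. Kcnq3, Kcnip1, Kcnq5 and Kcnc4 were among the genes lower with 2 or more counts. The sodium/calcium/potassium exchangers Slc24a2 and Slc24a3, picked after their values were seen, were both higher in C1ql2 spots, Slc24a2 at 274, 515 and 491 CPM against 185, 199.7 and 248 CPM (log2 fold change 0.96 ± 0.13, adjusted p = 0.000447) and Slc24a3 at 307, 369 and 302 CPM against 192, 171 and 195 CPM (log2 fold change 0.80 ± 0.13, adjusted p = 0.00156). Fabp5, a fatty acid-binding protein gene picked in the same way, had 408, 638 and 478 CPM against 277, 206 and 265 CPM (log2 fold change 0.98 ± 0.15, adjusted p = 0.000505). The delta subunit gene of GABA-A receptors, Gabrd, was higher (log2 fold change 0.63 ± 0.16, adjusted p = 0.0495) and passed in no fit with a section left out. With 2 or more counts it passed in every such fit, at 176, 157 and 242 CPM against 92.2, 76.6 and 111 CPM.

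Of 6 anteroventral markers none of the 5 tested passed in all C1ql2 spots, where 0.894% of all genes tested passed. Nexn, an actin filament protein gene, had 53.6, 22.4 and 28.4 CPM in C1ql2 spots and 34.3, 59.1 and 53.2 CPM in spots with none, with section 2 on the other side of the rest (adjusted p = 0.936). With 2 or more counts, where 3.66% of all genes tested were higher and 2.57% lower, 1 of the 5 was higher and 1 was lower. Their median log2 fold change was -0.51 against -0.01 over all genes, and 1 of the 5 was positive. The lower one was Kcnq3, a potassium channel subunit gene, at 48.4, 18.5 and 60.5 CPM against 88.1, 139.6 and 119.7 CPM (log2 fold change -1.21 ± 0.28, adjusted p = 0.00296). Col27a1, a fibrillar collagen gene, was the higher one, at 39.6, 64.8 and 65.5 CPM against 14.7, 31.0 and 19.9 CPM (log2 fold change 1.47 ± 0.36, adjusted p = 0.00606). The Col27a1 call held only without section 5, and the Kcnq3 call was lost without it.

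The anteromedial and midline markers depended on the number of C1ql2 counts. Calb2, which encodes calretinin, had 618, 218 and 222 CPM in C1ql2 spots and 471, 551 and 473 CPM in spots with none, higher in section 2 and lower in the other sections (adjusted p = 0.363). In spots with 2 or more counts it was lower in every section, at 299, 83.4 and 95.8 CPM (log2 fold change -1.47 ± 0.19, adjusted p = 1.05e-07). Lower there as well were Necab1 and Calb1, both of which encode calcium-binding proteins, with Necab1 at 83.6, 9.26 and 30.3 CPM against 162, 211 and 254 CPM and Calb1 at 149.7, 0 and 70.6 CPM against 232, 237 and 249.8 CPM (log2 fold changes -2.05 ± 0.27 and -1.41 ± 0.24). All 3 passed with any 1 section left out. In spots with a single count, Calb2 stood at 795, 424 and 355 CPM and Necab1 at 304, 113 and 117 CPM, so section 2 was the high one for both.

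Among 9 markers of other relay nuclei, Foxp1, Tnnt1 and Cacng4 were lower in C1ql2 spots, where 0.287% of all genes tested were lower. The list as a whole did not fall, as 4 of the 9 had positive fold changes and the median log2 fold change was -0.08. Its summed level was 785, 683 and 630 CPM in C1ql2 spots against 628, 960 and 1057 CPM. These ranges overlapped, and section 2 was higher in C1ql2 spots. Foxp1, a forkhead transcription factor gene, had 37.8, 28.0 and 25.8 CPM in C1ql2 spots, against 74.5, 119 and 95.5 CPM in spots with none (log2 fold change -1.44 ± 0.24, adjusted p = 0.00182). Tnnt1, the slow skeletal troponin T gene used as a thalamic marker, had 44.1, 11.2 and 5.17 CPM against 70.8, 81.4 and 60.3 CPM (log2 fold change -1.44 ± 0.32, adjusted p = 0.0229). Cacng4, an auxiliary subunit gene of AMPA receptors, had 39.4, 33.6 and 46.5 CPM against 47.6, 131 and 121 CPM (log2 fold change -1.02 ± 0.24, adjusted p = 0.0401). The groups did not overlap for any of the 3, as was so for 15.3% of the genes tested. For Cacng4 the nearest values were close, at 46.5 and 47.6 CPM.

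Mef2c, a MADS-box transcription factor gene (chromosome 13, 83504017 to 83667079), was the 1 lower gene that passed with any section left out, with 77.2, 67.1 and 62.0 CPM in C1ql2 spots against 169, 164 and 155 CPM (log2 fold change -1.20 ± 0.17, adjusted p = 0.000447). Its list holds markers of cortical neurons, of which Lamp5 was lower too. Foxp1 and Mef2c were the transcription factor genes that passed among 38 tested, and both fell, where 0.287% of all genes tested were lower. Of 34 tested with 2 or more counts, 5 were lower, with Hlf, Nr2f1 and Meis2 added, and 2 were higher, Prox1 and Zic1. The share over all genes tested there was 2.57% lower and 3.66% higher. Prox1, a homeobox gene shared by thalamic and dentate neurons, had 114, 129.7 and 106 CPM there against 53.8, 68.8 and 58.4 CPM (adjusted p = 0.00325, lost without section 2).

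Further genes with the largest falls were Calca (calcitonin gene-related peptide), Lamp5, Atp2b4 (a plasma membrane calcium pump), Gda (guanine deaminase), Adgrl2 (a latrophilin) and Col25a1 (a membrane collagen). Their log2 fold changes were -2.18, -1.89, -1.77, -1.44, -1.26 and -1.23. Each lost its call without section 5, and all but Col25a1 also without section 2 or 6. Col25a1 had 67.8, 28.0 and 15.5 CPM in C1ql2 spots, against 113, 105 and 79.3 CPM in spots with none, and with 2 or more counts 17.6, 27.8 and 0 CPM (log2 fold change -2.87 ± 0.41, adjusted p = 1.30e-06). Of 18 genes for C1q-like and cerebellin synapse organizers and their receptors, 14 were tested and Cbln1 was the 1 that passed, lower at 78.8, 50.4 and 56.8 CPM against 138, 150.3 and 124 CPM (log2 fold change -1.02 ± 0.18, adjusted p = 0.00381). The share lower over all genes tested in C1ql2 spots was 0.287%. Cbln1 encodes a secreted C1q-family protein, as C1ql2 does.

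Of 8 reticular and GABA markers, Sst, Pvalb, Slc32a1 and Gad1 were lower in C1ql2 spots among 7 tested, and all 7 had negative fold changes (median -1.05 against 0.00 over all genes). Over all genes tested 0.287% were lower. The somatostatin gene Sst had 48.8, 72.7 and 101 CPM in C1ql2 spots and 204, 181 and 156 CPM in spots with none (log2 fold change -1.33 ± 0.21, adjusted p = 0.000774). Gad1, which encodes the GABA-making enzyme GAD67, had 44.1, 112 and 127 CPM against 222, 181 and 133 CPM (adjusted p = 0.0422). Sections 5 and 6 came close to the other group, while section 2 was far below it. The summed level of the list ran from 292 to 514 CPM in C1ql2 spots and from 615 to 1001 CPM in spots with none. Of these 7 genes 6 were lower where C1ql2 had 2 or more counts, as were 2.57% of all genes tested there. The part of the reticular nucleus in the other falls was not tested, and leaving out the spots with counts of 3 or more of these markers, a choice that removes the list's own genes and so says nothing of them, gave 123 higher and 68 lower genes.

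Markers of other tissues gave mixed values. The summed levels of 9 dentate granule markers were 271 to 302 CPM in C1ql2 spots and 275 to 303 CPM in spots with none, and none of the 5 tested passed. The 9 hippocampal pyramidal markers summed to 260.0 to 462 CPM in C1ql2 spots against 229 to 287 CPM. The high value belonged to section 6, where Neurod6, a defining gene of pyramidal neurons, had 54.3 CPM against 15.7 CPM. Neurod6 had no count in the C1ql2 spots of sections 2 and 5, Trpc6 of the dentate list and Spink8 of the pyramidal list had none in any section. Leaving out every spot with a Neurod6 count gave 66 higher and 38 lower genes.

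Counts of 3 or more dentate or hippocampal markers occurred in 46 of 55, 15 of 25 and 31 of 41 C1ql2 spots, and in 203 of 273, 72 of 199 and 169 of 295 spots with none. Of the 9 markers in each of these lists, 5 were also abundant enough in the single thalamic cells to be tested. Without all such spots, 9, 10 and 10 C1ql2 spots were left, 1 gene was higher and 4 were lower, and the log2 fold change of Snap25 was -0.04, that of Fstl1 0.07 and that of Slc17a7 0.52 (adjusted p = 0.997 each). The part of hippocampal RNA in the higher calls was not tested further. Choroid plexus markers, led by Ttr, summed to 7912, 722 and 643 CPM in C1ql2 spots against 4120, 3454 and 5409 CPM, with section 2 on the other side of the rest. Hypothalamic markers summed to 211, 106 and 2170.1 CPM against 270.3, 301 and 1147 CPM, the high value being Oxt in section 6, and with 2 or more counts they summed to at most 151 CPM. Oligodendrocyte markers summed to 5784 to 8049 CPM against 6758 to 8306 CPM, and none of 8 passed. The part of these tissues in the results was not tested.

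Of 48 nuclear genes of oxidative phosphorylation, 2 were higher in all C1ql2 spots, Ndufa4 and Cox7a2, and all 48 had positive fold changes (median 0.25). In spots with 2 or more counts 21 of the 48 were higher and none was lower (median 0.35 against -0.01 over all genes). Over all genes tested, 0.607% were higher in all C1ql2 spots. With 2 or more counts 3.66% were higher and 2.57% lower. Ndufa4, a subunit gene of cytochrome oxidase, had 2025, 2242 and 2188 CPM there, against 1208, 885 and 1059 CPM in spots with none (log2 fold change 1.07 ± 0.11, adjusted p = 3.19e-10). Every section was higher, and the gene passed with any 1 left out.

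Of the 13 mitochondrially encoded genes none was higher, as 12 had negative fold changes in spots with 2 or more counts and 2 passed as lower (mt-Nd5 and mt-Nd4l). Among 19 cholesterol synthesis genes none passed in all C1ql2 spots, with a median of 0.41, and 8 were higher with 2 or more counts, with a median of 0.66. Over all genes tested there 3.66% were higher. Msmo1, a sterol C4-methyl oxidase gene, had 233, 185 and 197 CPM there against 128, 111 and 99.7 CPM (log2 fold change 0.91 ± 0.17, adjusted p = 0.000168) and passed with any 1 section left out, whereas Fdft1, squalene synthase, lost its call without section 2. Of 41 cytosolic ribosomal protein genes, 1 was lower with 2 or more counts and none was higher, a share close to the 2.57% of all genes tested that were lower there (median -0.11 against -0.01).

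Scg2, a granin of dense-core vesicles, had 132, 74.1 and 75.6 CPM in spots with 2 or more C1ql2 counts, against 344, 296 and 276 CPM in spots with none (log2 fold change -1.62 ± 0.18, adjusted p = 4.70e-09). Camk2a, the alpha subunit gene of calcium/calmodulin kinase II, had 52.8, 46.3 and 106 CPM against 199.8, 299.5 and 229 CPM (log2 fold change -1.67 ± 0.22, adjusted p = 1.15e-07). Both were lower in every section and passed with any 1 section left out. Their groups did not overlap, as was so for 23.4% of all genes tested. Of 14 neuropeptide and granin genes tested, 7 were lower and 1 was higher (Nxph1), with a median log2 fold change of -1.18 against -0.01 over all genes. Of 27 kinase and signalling genes tested, 8 were lower and 2 were higher, the adenylyl cyclases Adcy1 and Adcy2, with a median of -0.35. Over all genes tested there 2.57% were lower and 3.66% were higher. Of 13 immediate early genes tested, Egr1 alone passed, lower.

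Spots with 2 or more C1ql2 counts were also set directly against spots with 1, a comparison added after the data were seen. The former had the higher median totals in every section, and the part of depth in the calls was not tested. Of 4027 genes tested, 85 were higher (2.11%) and 72 were lower (1.79%), 157 in all (3.9%), and 37 and 23 without section 2, and 42 and 40 without section 6. Rspo3 had 52.8, 129.7 and 60.5 CPM in spots with 2 or more counts and 4.91, 28.3 and 10.6 CPM in spots with 1 (adjusted p = 0.00311, lost without section 2 or 6). Slc17a7 had 383, 547 and 559.7 CPM against 95.7, 127 and 334 CPM (log2 fold change 1.38 ± 0.19, adjusted p = 4.24e-08), and Calb2 had 299, 83.4 and 95.8 CPM against 795, 424 and 355 CPM (log2 fold change -1.67 ± 0.18, adjusted p = 2.73e-11). Slc17a7 was higher and Calb2 lower in every section, and both passed with any 1 section left out. Gng13 had 295, 352 and 292 CPM against 73.6, 113 and 106 CPM (log2 fold change 1.71 ± 0.23, adjusted p = 3.01e-08) and passed in the same fits.

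Set against 53 spots with Col27a1 and neither C1ql2 nor Calb2 (15, 18 and 20 per section), a choice made for the anteroventral nucleus, C1ql2 spots had 88 higher (2.59%) and 122 lower genes (3.59%) of 3398 tested, 210 in all (6.18%). Slc17a7 had 199, 380.5 and 449.5 CPM in C1ql2 spots, against 164, 11.5 and 153 CPM in Col27a1 spots (log2 fold change 1.39 ± 0.25, adjusted p = 3.10e-05, lost without section 6). Gng13 had 153, 257 and 202 CPM against 34.2, 34.5 and 58.4 CPM (log2 fold change 2.16 ± 0.32, adjusted p = 3.34e-07), and Nexn had 53.6, 22.4 and 28.4 CPM against 157, 173 and 139 CPM (log2 fold change -2.01 ± 0.34, adjusted p = 7.81e-06). Neither Gng13 nor Nexn overlapped between the groups, as was so for 19.2% of the genes tested, and both passed with any 1 section left out.

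Lower in C1ql2 spots with the same support were Tnnt1, Cbln1, Col25a1 and Tiam1, a Rac exchange factor gene, with Cbln1 at 78.8, 50.4 and 56.8 CPM against 321, 299 and 255 CPM (log2 fold change -2.16 ± 0.24, adjusted p = 3.53e-11). Eps8l2 had 50.4, 78.3 and 74.9 CPM against 61.5, 69.0 and 65.7 CPM, with overlapping values and a log2 fold change of 0.01 ± 0.38 (adjusted p = 0.993), and Cplx1 and Vamp1 did not pass (adjusted p = 0.572 and 0.0942). The Col27a1 spots are few, and 34 of the 210 genes still passed without section 6, where 12 were higher and 23 lower, against 44 and 62 without section 5.

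Against 431 spots with Calb2 and neither C1ql2 nor Col27a1 (171, 97 and 163 per section), a choice made for the anteromedial and midline nuclei, 70 genes were higher (0.853%) and 42 lower (0.512%) of 8207 tested, 112 in all (1.36%). Slc17a7 had 199, 380.5 and 449.5 CPM in C1ql2 spots, against 81.7, 58.8 and 129.6 CPM in Calb2 spots (log2 fold change 1.80 ± 0.18, adjusted p = 1.57e-06). Eps8l2 had 50.4, 78.3 and 74.9 CPM against 9.47, 19.0 and 16.2 CPM (log2 fold change 2.25 ± 0.29, adjusted p = 3.53e-05), and Cplx1 had 485, 1404 and 1217 CPM against 314, 338 and 443 CPM (log2 fold change 1.37 ± 0.16, adjusted p = 1.48e-05). All 3 were higher in each section and passed with any 1 left out, as did Fstl1, Gng13, Snap25, Kcnab2, Slc24a2 and Gabrd.

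Lower in C1ql2 spots than in Calb2 spots were Calb1, at 230.1, 16.8 and 114 CPM against 269, 299.8 and 296 CPM (adjusted p = 0.0309), and Necab1, at 225, 50.4 and 72.3 CPM against 214, 326 and 362 CPM (adjusted p = 0.0385). Section 2 was the high one for both genes in C1ql2 spots, and Necab1 was above the Calb2 spots there. No lower gene passed without section 5, although all 42 kept their direction, and 11 genes were higher there. Without section 2, 153 were higher and 114 lower. The comparisons share the C1ql2 spots, so their values are set side by side without a test of one against another.

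The single cells allowed a like comparison in another assay. Of 904 cells kept from 3 animals, 818 held Tcf7l2 and Slc17a6, and of these 59 had C1ql2 at 100 CPM or more (9, 17 and 33 in animals 1, 2 and 3) and 729 had none. Median totals were 76092, 13244 and 122328 counts in C1ql2 cells against 49337, 9058 and 50174 counts in cells with none. Of 12272 genes tested, 200 were higher (1.63%) and 153 lower (1.25%) in C1ql2 cells, 353 in all (2.88%), and 353, 287 and 228 of these passed without animals 1, 2 and 3. Without animal 1, which had the fewest C1ql2 cells, 699 genes were higher and 849 lower.

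Of the 57 genes higher in C1ql2 spots, all 57 were tested in cells, 56 had a positive fold change there and 36 passed as higher, which is 63.2% of the spot genes and 18.5% of the 195 higher cell genes that were tested in spots. Of the 27 lower genes, 20 were tested in cells, 18 were negative and 11 passed as lower (55.0% of those tested and 8.09% of 136 lower cell genes). For spots with 2 or more counts, 308 of the higher genes were tested in cells, 265 were positive and 94 passed, and of 184 lower genes 170 were negative and 58 passed. Cst3, the cystatin C gene, singled out after its values were seen, was the 1 gene that passed in opposite directions, lower in spots at 1677, 1371 and 1205 CPM against 2199, 2413 and 2122 CPM and higher in cells at 589, 743 and 774 CPM against 378, 350.2 and 391 CPM.

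**Figure D4:**
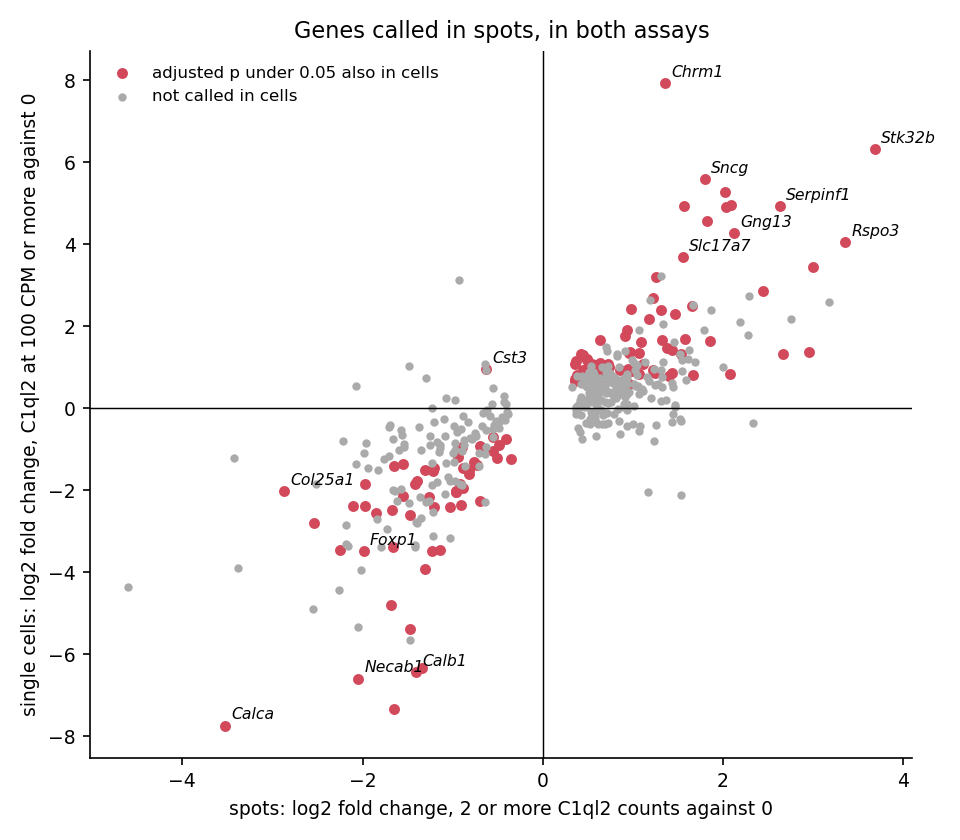
Log2 fold change in spots (2 or more C1ql2 counts against 0, x axis) and in single cells (C1ql2 at 100 CPM or more against 0, y axis) for 479 genes that passed in spots. Red points also passed in cells. Of 485 such genes with the same symbol in both assays, 6 with no count in a group are not drawn. Rspo3, Slc17a7, Gng13 and Serpinf1 lie at the upper right, and Cst3 is the red point at the upper left.

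Rspo3 had 155, 140.4 and 183 CPM in C1ql2 cells of animals 1, 2 and 3, against 13.9, 9.64 and 7.57 CPM in cells with none (log2 fold change 4.05 ± 0.39, adjusted p = 0.00187). Slc17a7 had 101, 78.5 and 123 CPM against 3.12, 15.6 and 10.5 CPM (log2 fold change 3.69 ± 0.60, adjusted p = 0.0144), and Gng13 had 165, 112 and 137 CPM against 5.20, 7.41 and 10.1 CPM (log2 fold change 4.27 ± 0.42, adjusted p = 0.00187). All 3 were higher in every animal and passed with any 1 animal left out, and their groups did not overlap, as was so for 28.7% of the genes tested in cells. Chrm1 had 60.3, 61.9 and 69.4 CPM in C1ql2 cells and 0, 0.371 and 0.406 CPM in cells with none, so the marker was near 0 outside the C1ql2 cells (adjusted p = 0.00435). Sncg, Serpinf1 and Megf11, all higher in spots, had log2 fold changes of 5.59, 4.92 and 4.91 in cells. Stk32b, Fstl1 and Vamp1 passed in cells too, but not without animal 2 or animal 3, and Eps8l2 not without animal 3.

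In the other direction, Foxp1 had 14.8, 20.6 and 23.9 CPM in C1ql2 cells and 281, 153 and 242 CPM in cells with none (log2 fold change -3.47 ± 0.34, adjusted p = 0.00187). Calb1 had 2.27, 8.26 and 2.29 CPM against 169.8, 207 and 333 CPM (log2 fold change -6.43 ± 0.47, adjusted p = 0.000901), and Cbln1 had 93.2, 107 and 64.1 CPM against 574, 363 and 437 CPM (log2 fold change -2.37 ± 0.23, adjusted p = 0.00187). The groups did not overlap for any of the 3, against 28.7% of all genes tested. Of 6 anteroventral markers, 3 were lower in C1ql2 cells (Nexn, Kcnq3 and Ccdc141) and 3 did not pass, with a median log2 fold change of -0.99 against -0.25 over all genes. Of all genes tested in cells 1.25% were lower. Nexn had 258, 264 and 183 CPM against 580.2, 524 and 490.2 CPM (log2 fold change -1.14 ± 0.17, adjusted p = 0.0106), and Col27a1 had 522, 206 and 217 CPM against 332, 281 and 283 CPM (adjusted p = 0.978). The reticular genes Sst, Gad1 and Slc32a1 had no count in C1ql2 cells and at most 0.812 CPM in cells with none.

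The gene lists that stood out in spots with 2 or more counts did so in cells to differing extents. Over all genes tested in cells 1.63% were higher and 1.25% were lower. Of 48 nuclear oxidative phosphorylation genes 32 were higher in C1ql2 cells and none lower, and all 48 were positive, with Ndufa4 at 2657, 2528 and 2555 CPM against 1068, 1134 and 990.4 CPM (log2 fold change 1.34 ± 0.13, adjusted p = 0.00187). Of 13 neurofilament and fast-firing genes 6 were higher (Sncg, Nefl, Syt2, Cplx1, Vamp1 and Nefm) and none lower. Of 19 cholesterol synthesis genes Fdft1 and Msmo1 passed. Oligodendrocyte markers differed between the cell groups, 5 of 8 being lower in C1ql2 cells, where Cldn11 had 0, 0 and 0.254 CPM against 143, 16.7 and 36.8 CPM, and the part of these in the cell comparison was not tested.

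**Figure D5:**
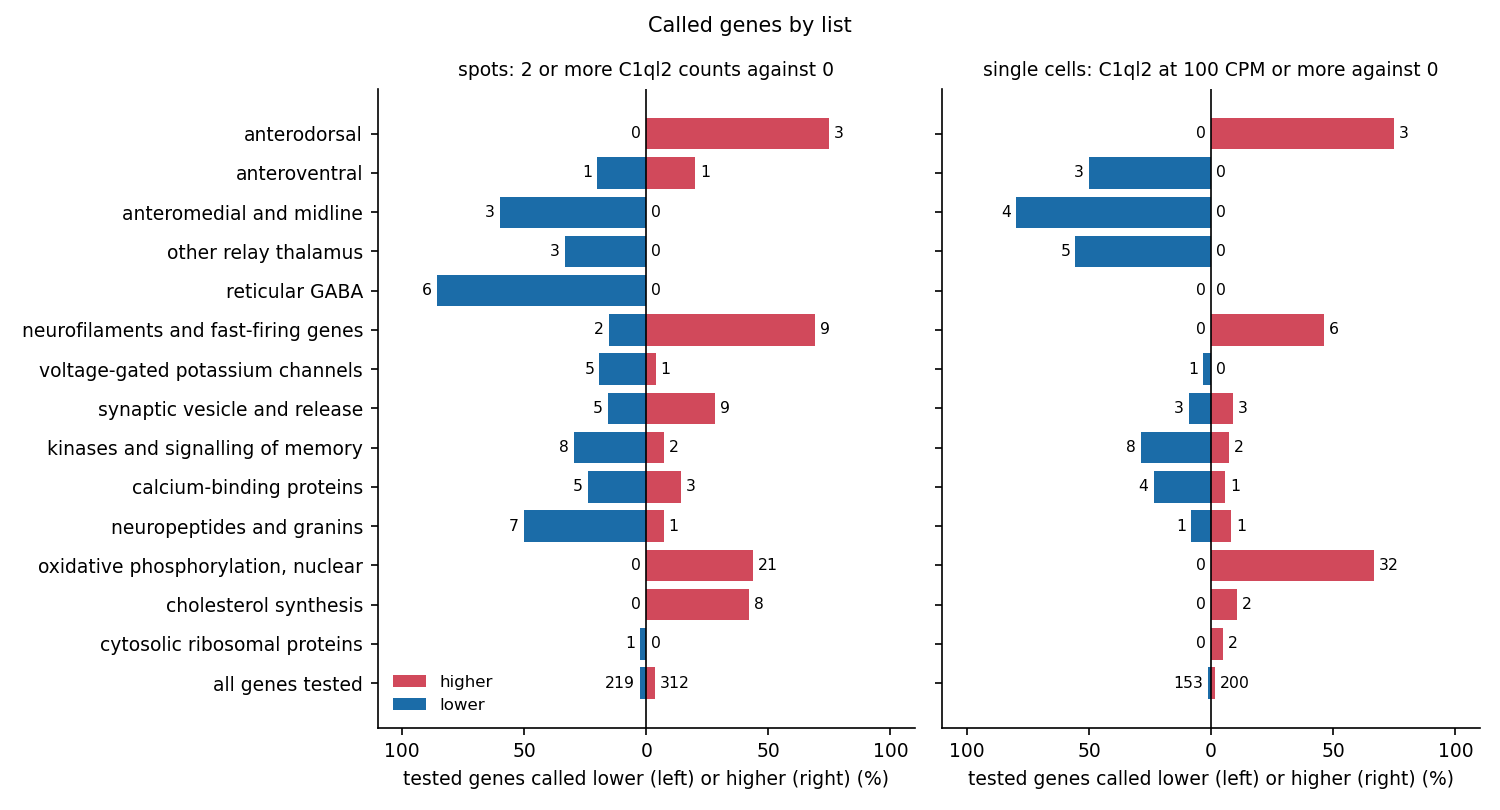
Share of the tested genes of each list that passed as lower (left of 0) or higher (right of 0), in spots with 2 or more C1ql2 counts against 0 and in C1ql2 cells against cells with none, with the number of genes at each bar. The bottom bar gives all genes tested. Oxidative phosphorylation has 21 higher genes of 48 in spots and 32 in cells, with none lower in either.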

How the data were processed

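Visium spots of 3 sections and hand-harvested single cells were analysed from gene counts that the authors deposited as whole numbers, not normalized. Per the submitters' processing notes, Space Ranger and Seurat were used and the builds NCBIM37 and mm10 are named with no role stated; the aligner and counter of the single cells are not given in the sources used here. Section and animal of each spot or well were taken from the deposited tables' other columns, such as the section name and the animal number, per the file headers.

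Counts were summed per section, or per animal, and group of spots or cells, so that spots of 1 section are not replicates. CPM values are shares of the summed counts. edgeR 4.0.16 in R 4.3.3 (TMM, its filter on low counts, quasi-likelihood test, section or animal as a block) gave log2 fold changes with standard errors, and p-values were adjusted by Benjamini-Hochberg over all genes tested, leaving out the genes that chose the spots. An adjusted p under 0.05 counted as passing. Both groups of a comparison come from the same sections, and the deviations of the 2 groups of a section from their means correlated at 0.217, 0.0995 and 0.107 across genes, against -0.126 to -0.00166 between different sections. Deviations from a mean cancel over the sections, so positive values within sections bring negative ones between them. The values between sections are therefore no separate baseline. Which sections share an animal is not stated. Thinned values were drawn once with a fixed seed. The fit was tested on simulated data.

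Cells needed at least 1000 genes with a count, Tcf7l2 and Slc17a6, and 9 wells of another animal were left out. Labels of the cell samples do not name the plates in the table, so the animal numbers of the table were the replicates. No doublet caller was run.

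Named genes are those past the threshold that changed by 0.5 or more in log2, reached 20 CPM in the higher group and moved the same way in every section, limited to the 15 largest rises and the 10 largest falls, plus up to 4 members of each of 48 gene lists and all markers of the anterior nuclei. Other members of a list are named beside its count, and Cst3, Fabp5, Slc24a2 and Slc24a3 were picked after their values were seen. Members and lists were chosen with earlier results of these data known. Positions are RefSeq's on GRCm38.p6, found for 246 of 251 named genes by symbol. Alternatives were DESeq2 1.42.0, other size factors, no filter, no block, deeper or thinned spots, other minimum counts, and leaving out sections, animals or spots with markers of other regions. Some genes that met these rules are not reported here.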

Additional observations from a re-analysis of the deposited data

How the results depend on the processing

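Values are numbers of genes higher and lower at an adjusted p under 0.05, against 57 and 27 for C1ql2 spots over spots with none. A minimum of 2 C1ql2 counts gave 312 and 219, of 3 counts 474 and 378, and spots with exactly 1 count 0 and 0. Leaving out 1 section gave 2 to 119 and 1 to 86, and with 2 or more counts 151, 161 and 224 higher and 90, 105 and 140 lower. Thinned to 1000 counts there were 1 and 0, and with 2 or more counts 9 and 1, where fewer genes could be tested. Spots of at least 5000 counts gave 30 and 12, DESeq2 25 and 4, and no filter on low counts 87 and 90. Without spots holding 3 or more hippocampal or dentate markers there were 1 and 4, and with 2 or more counts 0 and 3 by edgeR, from 1, 3 and 2 spots. Without spots holding reticular markers there were 123 and 68, and without habenula markers 45 lower genes. The causes were not tested. DESeq2 size factors, equal weight per spot, Tcf7l2 and Slc17a6 at 2 or more counts and leaving out Neurod6 spots moved neither count by over 1.5 times.

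With no replicate block, so that the pairing of groups within a section was not used, 2 genes were higher and 1 lower. For the Col27a1 spots this gave 19 and 36, for the Calb2 spots 21 and 2, for the cells 130 higher, and for 2 or more against 1 count 12 and 7.

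For the Col27a1 spots, leaving out 1 section gave 12 to 63 higher and 23 to 88 lower genes, and no filter 66 lower. For the Calb2 spots these were 11 to 153, 0 to 114 and 94. For the cells, leaving out 1 animal gave 137 to 699 and 161 to 849, and no filter 412 lower. For 2 or more against 1 count, leaving out 1 section gave 37 to 115 and 23 to 90. The share of spots with C1ql2 was 23.5% in section 2 with Tcf7l2 and Slc17a6 at 2 or more counts, and 19.0% in section 5 with at least 5000 counts.

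Among 29 named genes, direction turned for Fstl1 (log2 fold change -0.23 with exactly 1 count, and -0.087 with 2 or more counts without hippocampal-marker spots), Slc17a7 (-0.0071 with exactly 1 count), Snap25 (-0.043 without hippocampal-marker spots) and Sst (0.20 without reticular-marker spots, a choice that uses Sst itself and so says nothing of its difference). Alternatives with exactly 1 count, without reticular, habenula or Neurod6 spots, and with 2 or more counts combined with a left-out section, thinning or marker-bearing spots were added after seeing the data. Most C1ql2 spots held 1 count, which limits how firmly a spot can be placed in either group.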

Other observations

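With 2 or more C1ql2 counts, further genes passed with any 1 section left out. Frem3, an extracellular matrix protein gene, had 35.2, 27.8 and 30.3 CPM in those spots, against 2.95, 5.82 and 4.27 CPM in spots with none (adjusted p = 0.000168). Cela1, which encodes a chymotrypsin-like elastase, had 35.2, 37.1 and 20.2 CPM against 4.06, 3.88 and 5.22 CPM (log2 fold change 2.76 ± 0.56, adjusted p = 0.000626). Aqp4, the water channel gene of astrocytes, was higher at 194, 287 and 171 CPM against 117, 142 and 110.2 CPM (adjusted p = 0.000881), whereas Slc1a3, the astrocyte glutamate transporter gene, was lower at 194, 74.1 and 95.8 CPM against 341, 371 and 297 CPM (adjusted p = 5.62e-07). The other astrocyte marker that passed, Slc1a2, was lower, so the 8 astrocyte markers did not move in 1 direction.

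Of 17 cadherin and protocadherin genes tested, 5 were lower with 2 or more counts and none was higher, with a median log2 fold change of -0.68 against -0.01 over all genes. Over all genes tested there 2.57% were lower. Pcdh7 was among the 5, at 26.4, 18.5 and 10.1 CPM against 76.7, 65.9 and 61.7 CPM (log2 fold change -1.84 ± 0.39, adjusted p = 0.000961), and passed with any 1 section left out, whereas Pcdh19 and Cdh13 passed in no such fit. In the single cells none of 19 tested genes of this list passed by edgeR. Of 7 cholinergic genes tested in spots with 2 or more counts, Chrna4, a nicotinic receptor subunit gene, Chrm1 and Ache, which encodes acetylcholinesterase, were higher, and in cells Chrm1 alone passed. In those spots 4 of the 7 were positive, with a median log2 fold change of 0.003, and 3.66% of all genes tested were higher.

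Against the Col27a1 spots, 9 of 41 ribosomal protein genes and 10 of 48 nuclear oxidative phosphorylation genes were higher in C1ql2 spots and none was lower, with medians of 0.36 and 0.31 against 0.00 over all genes. Over all genes tested in that comparison 2.59% were higher.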
